A study of Mus musculus with 6 samples.

Results

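The 9 complement genes described here encode the 3 chains of C1q (C1qa, C1qb, C1qc), the components C3, C4b and C6, factor B (Cfb) and the receptors of the fragments C3a and C5a (C3ar1, C5ar1). They were taken by symbol from count files that list 23420 genes. The rule used names and no measured value, but the genes were chosen with earlier results of these data known. RNA was sequenced from dendritic cells, which present antigen to T cells, taken from the spleens of C57BL/6 mice, in 3 libraries of genotype TBK1-DKO and 3 libraries of wild type (WT). The labels give the age of all mice as 8 weeks in one place and 10 weeks in another. The sources used here do not spell out DKO and do not give the alleles, the means of isolation, or whether each library came from its own animal, so the p-values speak of the spread among these libraries alone, which may be technical.

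Complement is a set of plasma and cell-surface proteins that tags microbes and dying cells, draws in leukocytes and opens membranes. The classical pathway starts when C1q binds a target and activates the proteases C1r and C1s, which cleave C4 and C2; the lectin pathway reaches the same step through ficolins and mannose-binding lectins, and the alternative pathway amplifies cleavage of C3 through factor B. Most plasma complement is made in the liver, whereas C1q is made mainly by macrophages and dendritic cells, and the spleen is rich in macrophages that take up blood-borne particles.

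Reads in genes ran from 45018389 to 47349648 in TBK1-DKO libraries and from 31077585 to 36145508 in WT libraries, a mean depth 1.37 times as high in TBK1-DKO libraries. Within each group 1 library stood apart from the other 2: for TBK1-DKO 2 against TBK1-DKO 1 or 3, chi-square over genes divided by its degrees of freedom was 38.3, against 2.47 between TBK1-DKO 1 and 3. For WT 1 it was 13 against WT 2 and 14.5 against WT 3, and 2.62 between WT 2 and 3. Tbk1 itself averaged 82.3 ± 2.69 CPM (counts scaled to 1000000 reads) in TBK1-DKO libraries and 85.0 ± 5.08 CPM in WT libraries (SD, n = 3 each). Its log2 fold change was -0.05 (SE 0.06, adjusted p = 0.63), and a total over all exons does not check a genotype whose allele may leave most of the transcript in place. None of the 17 conventional dendritic cell markers, among them Flt3 and Zbtb46, was at 0 reads in all libraries. Reads above 0 do not tell how pure the cells were, and markers of other cell types were present too, as given below.

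Of the 9 complement genes, 6 differed between the groups. C1qa, C1qb, C1qc and C6 fell in TBK1-DKO libraries, Cfb and C5ar1 rose, and C3, C4b and C3ar1 were not called. A gene was called when the adjusted p of the edgeR quasi-likelihood test (Benjamini-Hochberg over all 14388 genes tested) was under 0.05. Across all genes tested, 3402 were called, which is 23.6%; 1978 (13.7%) rose and 1424 (9.90%) fell. The median log2 fold change of the 9 genes was -0.14, beside 0.00 over all genes tested. In 7 of the 9 the TBK1-DKO and WT libraries did not overlap, 4 with every TBK1-DKO library above and 3 with every one below, beside 41.1% of all genes tested without overlap, 21.5% above and 19.5% below. Without TBK1-DKO 2 and WT 1, the libraries that stood apart, 3 of the 9 rose, C3 being the addition, and 4 fell. Far more of all genes were also called in that fit, both up and down, as given below. The shares above are therefore not the ones to set beside its counts, here or in the lists that follow.

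**Figure D1:**
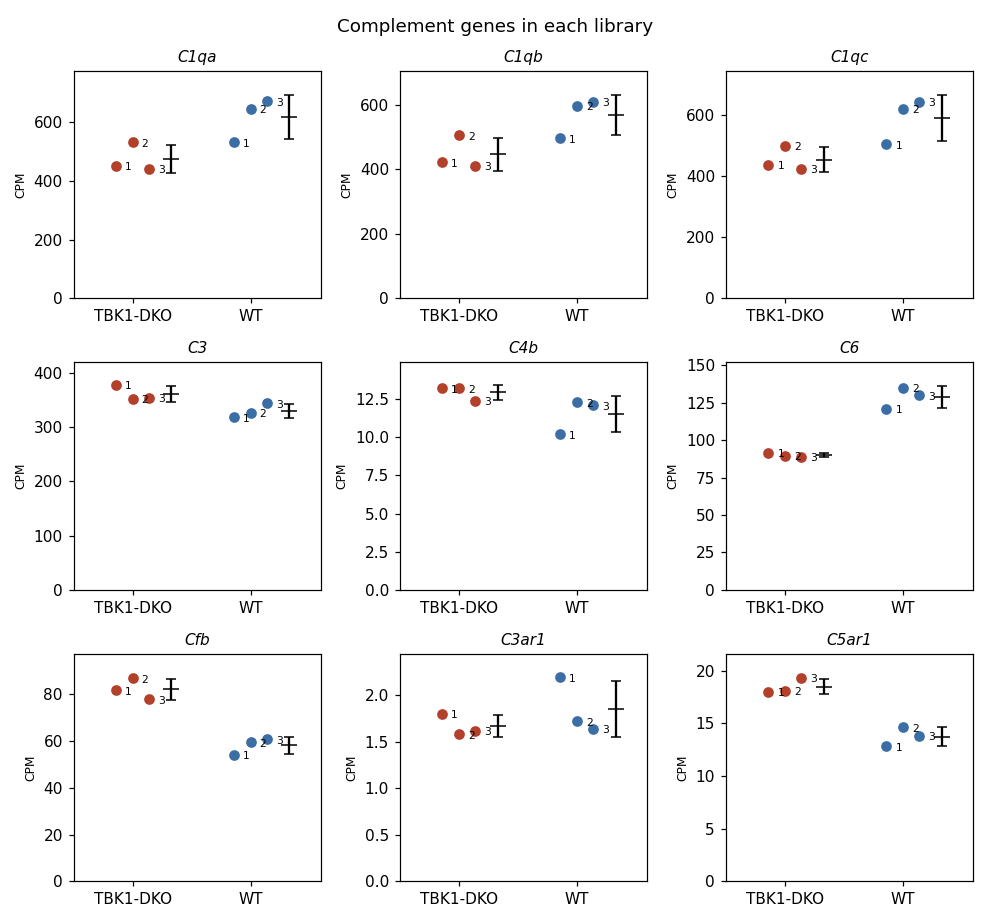
Level of each of the 9 complement genes in CPM (vertical axes from 0, a scale per gene) in each library, TBK1-DKO in red and WT in blue, with the replicate number beside each point and the mean and SD of the 3 libraries in black. For C6, Cfb and C5ar1 the groups are well apart; for C1qa the highest TBK1-DKO library and the lowest WT library both stand at 532 CPM.

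The C1q chains lie side by side on chromosome 4, on the minus strand of GRCm38: C1qb at 136880129 to 136886187, C1qc at 136889804 to 136893065 and C1qa at 136895917 to 136898803. Because the 3 genes moved together, the sequence around the start site is shown for the 2 chains that have one in the RefSeq promoter table (GRCm38.p6; 6 of the 9 genes matched), from 250 bases before to 50 bases after the start, read 5′ to 3′ on the minus strand. Capitals mark matches to GAGGAA, the core that the myeloid factor PU.1 binds, or to a form of the NF-kB motif (GGGA, any 4 bases, CC), on either strand. The C1qb window is chr4:136886151-136886450 and the C1qc window is chr4:136892865-136893164.
C1qb: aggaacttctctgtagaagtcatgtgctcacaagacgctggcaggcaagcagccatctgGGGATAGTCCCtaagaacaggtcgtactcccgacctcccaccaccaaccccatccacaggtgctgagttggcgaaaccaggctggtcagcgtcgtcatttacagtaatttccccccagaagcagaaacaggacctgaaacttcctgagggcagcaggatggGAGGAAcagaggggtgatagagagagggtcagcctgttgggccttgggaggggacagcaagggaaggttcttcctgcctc
C1qc: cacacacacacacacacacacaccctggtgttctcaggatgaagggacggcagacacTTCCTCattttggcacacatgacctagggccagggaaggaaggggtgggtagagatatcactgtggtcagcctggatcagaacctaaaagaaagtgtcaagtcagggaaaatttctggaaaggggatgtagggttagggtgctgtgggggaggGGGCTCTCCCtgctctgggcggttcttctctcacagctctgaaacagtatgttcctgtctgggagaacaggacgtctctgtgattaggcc
The C1qb window held 1 match to GAGGAA, 30 bases before the start, and 2 overlapping NF-kB matches on opposite strands, 191 and 190 bases before it. The C1qc window held 1 match to GAGGAA on the reverse strand, 193 bases before the start, and 1 NF-kB match on the reverse strand, 40 bases before it. The starts are those of RefSeq, whereas the gene spans above are those of GENCODE. For C1qc the RefSeq start lies inside the GENCODE span, and so does this NF-kB match. Of 32851 promoter windows of the same length, 28.3% held GAGGAA and 20.7% held the NF-kB motif. Neither window held the C/EBP motif TTGCNNAA (10.8% of all windows), the interferon response core of 2 GAAA runs spaced by any 2 bases (3.44%) or the MAF element TGCTGAC (4.67%). Among the other matched genes, the C3 window held 3 NF-kB matches and 1 to TTGCNNAA, and the windows of C6, C3ar1 and C5ar1 held none of the 5 motifs.

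C1q is a hexamer of trimers in which each trimer takes up an A, a B and a C chain, so the chains are needed in equal amounts. In libraries 1, 2 and 3 of each group, C1qa stood at 452, 532 and 442 CPM in TBK1-DKO, against 532, 647 and 673 CPM in WT. C1qb stood at 422, 505 and 411 CPM in TBK1-DKO libraries, against 496, 596 and 609 CPM in WT libraries. C1qc stood at 437, 500 and 424 CPM in TBK1-DKO libraries, against 504, 621 and 644 CPM in WT libraries. In every chain TBK1-DKO 2 was the highest of its group and WT 1 the lowest of its own, so that for C1qb these 2 libraries crossed and for C1qa they met at 532 CPM.

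The chains fell by nearly the same amount. C1qa averaged 475 ± 49.5 CPM in TBK1-DKO libraries and 617 ± 74.8 CPM in WT libraries (SD, n = 3 each). The log2 fold change was -0.38 (SE 0.10, adjusted p = 0.022), with a 95% interval of -0.60 to -0.15. The log2 fold change was -0.35 for C1qb (SE 0.10, adjusted p = 0.030), with a 95% interval of -0.57 to -0.12. It was -0.38 for C1qc (SE 0.10, adjusted p = 0.020), with a 95% interval of -0.60 to -0.16. Leaving out TBK1-DKO 1, TBK1-DKO 3, WT 2 or WT 3 ended the call of all 3 chains, with adjusted p of 0.075 to 0.092 for C1qa, 0.10 to 0.11 for C1qb and 0.066 to 0.086 for C1qc, and of the 9 genes 1, C6, then fell. Without TBK1-DKO 2 and WT 1 together the log2 fold changes were -0.57, -0.55 and -0.57 for C1qa, C1qb and C1qc. Fewer cells of a type and less RNA per cell cannot be told apart in these libraries, here or for any gene below.

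The ratio between the chains hardly moved. Reads of C1qa over C1qb were 1.07, 1.05 and 1.08 in TBK1-DKO libraries, against 1.07, 1.09 and 1.10 in WT libraries. Reads of C1qc over C1qb were 1.04, 0.991 and 1.03 in TBK1-DKO libraries, against 1.02, 1.04 and 1.06 in WT libraries. Both ratios overlapped between the groups. Centred on its own mean, each chain stayed within a root mean square of 0.0162 log2 units of the mean of the 3 chains over the 6 libraries, the chains themselves making up that mean.

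C4b encodes the fourth component, whose larger fragment binds covalently to the target and forms the classical C3 convertase with C2. It stood at 13.2, 13.2 and 12.4 CPM in TBK1-DKO libraries, against 10.2, 12.3 and 12.1 CPM in WT libraries. Every TBK1-DKO library was above every WT library, the nearest by a hair, and the gene was not called (log2 fold change 0.16, SE 0.09, 95% interval -0.04 to 0.36, adjusted p = 0.23). Of the 50-base words of its transcript, 35.2% are shared with C4a, the near-identical neighbour that encodes sex-limited protein, so reads may be split between both or lost, and its level is uncertain. C4b lies on chromosome 17 at 34728380 to 34743882, in the same cluster as Cfb and C2.

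C3, the component on which all 3 pathways converge, was the most abundant of the 9 genes after the C1q chains. It stood at 378, 352 and 354 CPM in TBK1-DKO libraries, against 318, 326 and 344 CPM in WT libraries. All TBK1-DKO libraries were above all WT libraries, by a small margin, and the gene was not called. The means were 361 ± 14.2 CPM in TBK1-DKO libraries and 329 ± 13.2 CPM in WT libraries (SD, n = 3 each). The log2 fold change was 0.13 (SE 0.06, adjusted p = 0.14), with a 95% interval of 0.00 to 0.27. It was called without TBK1-DKO 2 and WT 1 together, at a log2 fold change of 0.12 (adjusted p = 0.00081). That change was no larger than in the full comparison.

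Cfb encodes factor B, the protease that joins with C3b to form the alternative C3 convertase. It stood at 81.8, 86.9 and 78.0 CPM in TBK1-DKO libraries, against 54.2, 59.6 and 60.9 CPM in WT libraries. The lowest TBK1-DKO library was well above the highest WT library. The log2 fold change was 0.50 (SE 0.07, 95% interval 0.35 to 0.65, adjusted p = 0.00042), a ratio of 1.41, and it stayed between 0.40 and 0.54 and called in all 19 alternatives. Cfb (chromosome 17, 34856374 to 34862518, minus strand) and C2 lie next to each other, and 81.4% of the 50-base words of Cfb and 58.0% of those of C2 also occur in Gm20547, a readthrough transcript over both that has no row in the count files; whether the counting assigned such reads to Cfb is not given in the sources used here.

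C2, the protease of the classical convertase and the counterpart of factor B, moved the other way. It stood at 38.3, 40.7 and 36.2 CPM in TBK1-DKO libraries, against 47.8, 46.5 and 46.2 CPM in WT libraries. It fell, with a log2 fold change of -0.29 (SE 0.06, adjusted p = 0.0079). Reads of Cfb over C2 were 2.14, 2.14 and 2.15 in TBK1-DKO libraries, against 1.13, 1.28 and 1.32 in WT libraries. The 3 TBK1-DKO ratios were nearly equal and stood apart from all WT ratios.

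C6, a pore subunit of the membrane attack complex that joins C5b first, had the largest fall of the 9 genes. It stood at 91.6, 89.7 and 88.9 CPM in TBK1-DKO libraries, against 121, 135 and 130 CPM in WT libraries. The TBK1-DKO libraries lay close together and all below the WT libraries. The means were 90.0 ± 1.38 CPM in TBK1-DKO libraries and 128 ± 7.16 CPM in WT libraries (SD, n = 3 each). The log2 fold change was -0.51 (SE 0.06, adjusted p = 0.00016), with a 95% interval of -0.64 to -0.38. The call held in all 19 alternatives, between -0.57 and -0.49. C6 (chromosome 15, 4727175 to 4814967, plus strand) was the one abundant gene of the terminal pathway, as C7 had no read anywhere (a count of 0 leaves room for 3 reads in a library) and C8b and C9 had 0 or 1 read. Hc, the mouse gene of C5, had 13 to 51 reads per library, C8a had 23 to 46 and C8g had 110 to 157, and none of these 3 was called.

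C5ar1 encodes the receptor for C5a that draws neutrophils and macrophages towards sites of complement activation. It stood at 18.0, 18.1 and 19.3 CPM in TBK1-DKO libraries, against 12.8, 14.6 and 13.8 CPM in WT libraries. It rose, without overlap, by 0.43 on the log2 scale (SE 0.08, adjusted p = 0.0027; 95% interval 0.26 to 0.60), and the call held in all 19 alternatives, between 0.38 and 0.46. C5ar2, the second C5a receptor, averaged 9.32 CPM in TBK1-DKO libraries and 10.4 CPM in WT libraries and was not called (log2 fold change -0.16, adjusted p = 0.22). The difference between the 2 receptors was not tested.

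C3ar1, the receptor for C3a, was the scarcest of the 9 genes. It had 85, 72 and 73 reads in TBK1-DKO libraries, against 69, 62 and 55 reads in WT libraries, which came to 1.80, 1.58 and 1.62 CPM in TBK1-DKO libraries and 2.19, 1.72 and 1.64 CPM in WT libraries. The groups overlapped, and the gene was not called (log2 fold change -0.14, SE 0.16, adjusted p = 0.57). Its 95% interval, -0.50 to 0.21, takes in a fall as large as that of the C1q chains. Such a fall could be missed at this depth. Without TBK1-DKO 2 and WT 1 together the log2 fold change was 0.02.

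Per length of transcript the 9 genes spanned a wide range of levels. In TBK1-DKO libraries C1qa stood at 457, C1qb at 410 and C1qc at 377 CPM per kb, followed by C3 at 70.4, C6 at 31.3, Cfb at 29.9, C5ar1 at 7.28, C4b at 2.40 and C3ar1 at 0.387 CPM per kb. In WT libraries C1qa stood at 594, C1qb at 521 and C1qc at 490 CPM per kb, followed by C3 at 64.1, C6 at 44.7, Cfb at 21.2, C5ar1 at 5.41, C4b at 2.14 and C3ar1 at 0.43 CPM per kb. The order was the same in both groups. Chains next to each other in it differed by about 1 SD or less, an SD that includes shifts between libraries shared by all 3 chains. C1qa, with the shorter transcript (1.04 kb against 1.09 kb), had more reads than C1qb in every library, at ratios of 1.05 to 1.10. C6 and Cfb also lay within their SDs of each other in TBK1-DKO libraries, at 31.3 ± 0.479 and 29.9 ± 1.62 CPM per kb, but not in WT libraries, at 44.7 ± 2.49 and 21.2 ± 1.30 CPM per kb.

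**Figure D2:**
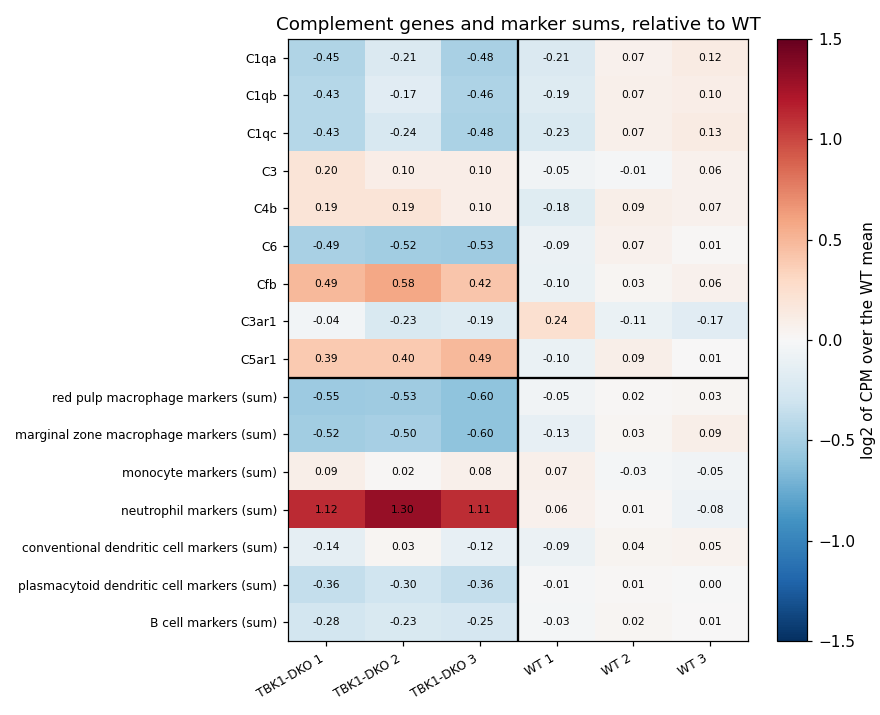
Log2 of the CPM in each library over the mean of the 3 WT libraries, for the 9 complement genes (above the line) and the summed CPM of 7 lists of cell type markers (below it), TBK1-DKO libraries left of WT libraries. C6 stands at -0.49, -0.52 and -0.53 in TBK1-DKO libraries and the red pulp macrophage sum at -0.55, -0.53 and -0.60, while C5ar1 stands at 0.39, 0.40 and 0.49 and the neutrophil sum at 1.12, 1.30 and 1.11.

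In the whole list of the initiating arms of the pathway, which takes in the C1q chains, more genes fell than rose. Over all genes tested, 9.90% fell and 13.7% rose, the shares to set beside the full-comparison counts of this list and those below. Of 19 genes of the classical and lectin pathways in the files, C1q chains and C4b included, 12 could be tested, 8 fell, 1 rose and 3 were not called, with a median log2 fold change of -0.36. Without TBK1-DKO 1, TBK1-DKO 3, WT 2 or WT 3, 4 fell, since the C1q chains and C1ra lost their calls together (adjusted p of C1ra 0.072 to 0.12); without TBK1-DKO 2 and WT 1, 8 fell. The protease genes C1ra and C1s were scarce, C1s averaging 0.611 ± 0.108 CPM in TBK1-DKO libraries and 1.20 ± 0.106 CPM in WT libraries (SD, n = 3 each; log2 fold change -0.98, SE 0.21, adjusted p = 0.0069). Colec12, a scavenger receptor with a collectin domain, also fell (log2 fold change -0.40, SE 0.07, adjusted p = 0.0026). Mbl1 and Mbl2, the mannose-binding lectins, also had 0 reads in every library.

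The 2 ficolins, the lectins that recognise acetylated sugars, moved in opposite directions. Fcna, made in mice by macrophages of spleen and liver, stood at 288, 345 and 278 CPM in TBK1-DKO libraries, against 508, 533 and 547 CPM in WT libraries (log2 fold change -0.80, SE 0.08, adjusted p = 9.5e-05). Fcnb, made in mice by immature myeloid cells and neutrophils, stood at 43.2, 46.5 and 41.2 CPM in TBK1-DKO libraries, against 14.6, 16.5 and 14.8 CPM in WT libraries (log2 fold change 1.51, SE 0.08, adjusted p = 1.5e-06). The groups were far apart for both genes. Reads of Fcnb over Fcna were 0.150, 0.135 and 0.148 in TBK1-DKO libraries, against 0.0288, 0.031 and 0.0271 in WT libraries.

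In the alternative pathway, Cfp, which encodes the convertase stabiliser properdin, fell while Cfb rose. Cfp stood at 531, 607 and 512 CPM in TBK1-DKO libraries, against 639, 707 and 712 CPM in WT libraries (log2 fold change -0.32, SE 0.08, adjusted p = 0.015). The groups did not overlap, and the call was lost without TBK1-DKO 1, TBK1-DKO 3, WT 2 or WT 3 (adjusted p 0.065 to 0.073). Cfd, the protease that cleaves factor B, had 0 to 4 reads per library and was not tested.

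Of 19 regulators of complement in the files, 11 could be tested, 2 rose, 3 fell and 6 were not called, with a median of -0.37. Cd55, which speeds the decay of the convertases on the cell surface, averaged 117 ± 14.1 CPM in TBK1-DKO libraries and 171 ± 8.18 CPM in WT libraries (SD, n = 3 each; log2 fold change -0.55, SE 0.09, adjusted p = 0.0011). Cd59a, which blocks the membrane attack complex, averaged 10.5 ± 0.984 CPM in TBK1-DKO libraries and 6.83 ± 0.746 CPM in WT libraries (SD, n = 3 each; log2 fold change 0.62, SE 0.11, adjusted p = 0.0023). Of the other membrane-bound regulators, Cr1l averaged 68.4 CPM in TBK1-DKO libraries and 68.9 CPM in WT libraries and was not called, nor were the scarce Cd46 (adjusted p = 0.17), Cd59b (adjusted p = 0.54) and Daf2 (log2 fold change -0.98, adjusted p = 0.051), of which Daf2 was called in 6 of the 19 alternatives. Clu, which encodes the fluid-phase inhibitor clusterin, rose (log2 fold change 0.82, SE 0.10, adjusted p = 0.00024). The fall of Serping1, the C1 inhibitor gene (log2 fold change -0.60, adjusted p = 0.027), was not called by DESeq2 nor without TBK1-DKO 1, TBK1-DKO 3 or any 1 WT library (adjusted p 0.053 to 0.094).

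Of 14 complement receptor genes in the files, 13 could be tested, C3ar1 and C5ar1 included; 2 rose, 3 fell and 8 were not called, with a median of -0.11. Vsig4, the receptor by which tissue macrophages bind C3b-coated particles, stood at 1.78, 2.06 and 1.75 CPM in TBK1-DKO libraries, against 5.41, 5.66 and 4.82 CPM in WT libraries (log2 fold change -1.51, SE 0.12, adjusted p = 2.1e-05). Itgam, the alpha chain of complement receptor 3, rose to 233 ± 19.8 CPM in TBK1-DKO libraries, against 180 ± 10.9 CPM in WT libraries (SD, n = 3 each; log2 fold change 0.37, SE 0.08, adjusted p = 0.0052). Itgax, the alpha chain of complement receptor 4 and a dendritic cell marker, fell by a small amount (log2 fold change -0.20, SE 0.06, adjusted p = 0.030), and Cr2, the C3d receptor of B cells, fell as well (log2 fold change -0.33, SE 0.08, adjusted p = 0.015). Without WT 1, the calls of Itgax (adjusted p = 0.067) and Cr2 (adjusted p = 0.052) were lost and 1 receptor gene fell; without TBK1-DKO 2 and WT 1 together, 6 fell. The call of Itgax was also lost without TBK1-DKO 1, TBK1-DKO 3 or WT 2 (adjusted p 0.070 to 0.095).

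**Figure D3:**
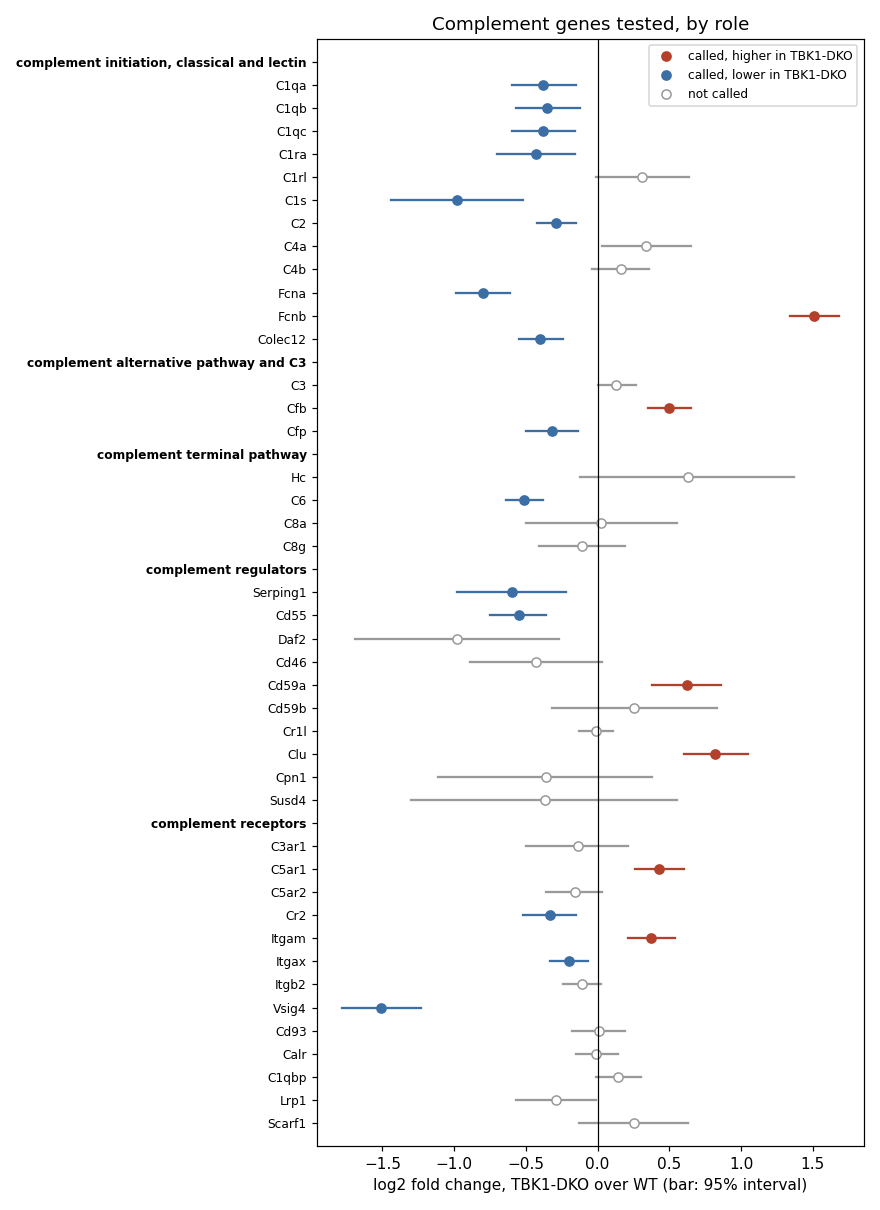
Log2 fold change, TBK1-DKO over WT, of the complement genes tested, except 1 not shown (points) with its 95% interval (bars), grouped by role; red points were called and higher in TBK1-DKO libraries, blue points called and lower, open grey points not called. Fcnb, at 1.51, is the largest rise, and Vsig4, at -1.51, the largest fall among the called genes.

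Markers of several cell types also differed between the groups. Of 16 markers of red pulp macrophages, which clear aged red cells, 13 fell, 0 rose and 3 were not called, with a median of -0.54; their summed level was 6913.2 to 7242.4 CPM in TBK1-DKO libraries and 10129.1 to 10704.7 CPM in WT libraries, and no marker was at 0. Cd163, the haemoglobin scavenger receptor, averaged 120 ± 11.7 CPM in TBK1-DKO libraries and 253 ± 2.44 CPM in WT libraries (SD, n = 3 each; log2 fold change -1.08, SE 0.07, adjusted p = 6.8e-06). Of 6 marginal zone macrophage markers, 4 fell and 1 rose, and their sum was 344 to 371 CPM in TBK1-DKO libraries and 478 to 556 CPM in WT libraries; the rise was not called without TBK1-DKO 1, WT 2 or WT 3. These falls ran beside those of C1qa, C1qb, C1qc, C6, Fcna and Vsig4, and their part in them was not tested. Plasmacytoid dendritic cell markers and T and NK cell markers fell too, with medians of -0.43 and -0.41. Without TBK1-DKO 2 and WT 1, 15 red pulp markers fell.

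Of 16 neutrophil markers, 14 rose, 0 fell and 2 were not called, with a median of 1.20; their summed level was 6598.7 to 7534.4 CPM in TBK1-DKO libraries and 2895.0 to 3184.6 CPM in WT libraries, and no marker was at 0. Mpo, the peroxidase of neutrophil granules, averaged 197 ± 6.20 CPM in TBK1-DKO libraries and 50.9 ± 3.66 CPM in WT libraries (SD, n = 3 each; log2 fold change 1.95, SE 0.07, adjusted p = 1.3e-07). The rise was uneven: Csf3r rose by 0.17 on the log2 scale, and Cxcr2 (0.15) and Stfa2l1 (-0.01) were those not called. These rises ran beside those of C5ar1, Cfb, Fcnb and Itgam, as did rises of plasma cell, erythroid, and eosinophil and mast cell markers given below. The part of any of them was not tested. Of 13 monocyte markers, 5 rose and 3 fell, with sums of 2127.8 to 2244.5 CPM in TBK1-DKO libraries and 2035.9 to 2214.2 CPM in WT libraries; 3 rose without WT 2 or WT 3. Of the 17 conventional dendritic cell markers, 3 rose and 7 fell. Of these markers 1 rose without WT 3, and 11 fell without TBK1-DKO 2 and WT 1 together. Their summed level overlapped, at 7145.8 to 8026.9 CPM in TBK1-DKO libraries and 7382.9 to 8149.7 CPM in WT libraries. The sum rests largely on H2-Ab1 (means of 2222.1 CPM in TBK1-DKO and 2356.9 CPM in WT libraries) and H2-Eb1 (2590.8 and 2500.6 CPM). Neither was called, so the overlap says little of the other markers.

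The remaining lists moved as follows. All 6 plasma cell markers and all 8 erythroid markers rose, and of 8 eosinophil and mast cell markers 6 rose and 1 fell. Of 8 plasmacytoid dendritic cell markers 7 fell, of 9 T and NK cell markers 7 fell, and of 9 B cell markers 4 fell, with no rise in these 3 lists. Of 12 stromal, endothelial and follicular dendritic cell markers in the files 10 could be tested, of which 2 rose and 3 fell, and Ccl21a had 0 reads. Without WT 2, 4 plasmacytoid dendritic cell markers fell and 1 stromal list marker rose; without WT 3, 1 stromal list marker fell; without TBK1-DKO 2, 7 B cell markers fell.

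The C1q chains were set against the macrophage markers within each library. Summed over the 3 chains, C1q stood at 1310.8, 1537.1 and 1276.7 CPM in TBK1-DKO libraries, against 1532.3, 1863.7 and 1926.0 CPM in WT libraries. The sum of 7 markers of splenic macrophages (Cd5l, Vcam1, Spic, Hmox1, Slc40a1, Emr1, Csf1r) was 4694.3, 4714.4 and 4485.2 CPM in TBK1-DKO libraries, against 6714.8, 6961.7 and 6993.0 CPM in WT libraries. The ratio of C1q to these markers was 0.279, 0.326 and 0.285 in TBK1-DKO libraries, against 0.228, 0.268 and 0.275 in WT libraries. It was higher in every TBK1-DKO library than in any WT library, and the values farthest apart were those of TBK1-DKO 2 and WT 1. On the log2 scale the mean was -1.76 ± 0.12 in TBK1-DKO libraries and -1.96 ± 0.15 in WT libraries (SD, n = 3 each), a difference of 0.21 (two-sided exact permutation p = 0.1, which is the lowest value that groups of 3 can give). The difference was 0.12 without WT 1, 0.14 without TBK1-DKO 2 and 0.05 without both. With all 16 red pulp macrophage markers in place of the 7, it was 0.20 (two-sided exact permutation p = 0.1); the 3 of these 16 that were not called, Fcgr1 (log2 fold change 0.15), Pld4 (-0.10) and Mertk (-0.25), are not among the 7. Against single markers, the difference ran from 0.11 for Spic to 0.33 for Emr1, with exact two-sided permutation p of 0.1 to 0.5.

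**Figure D4:**
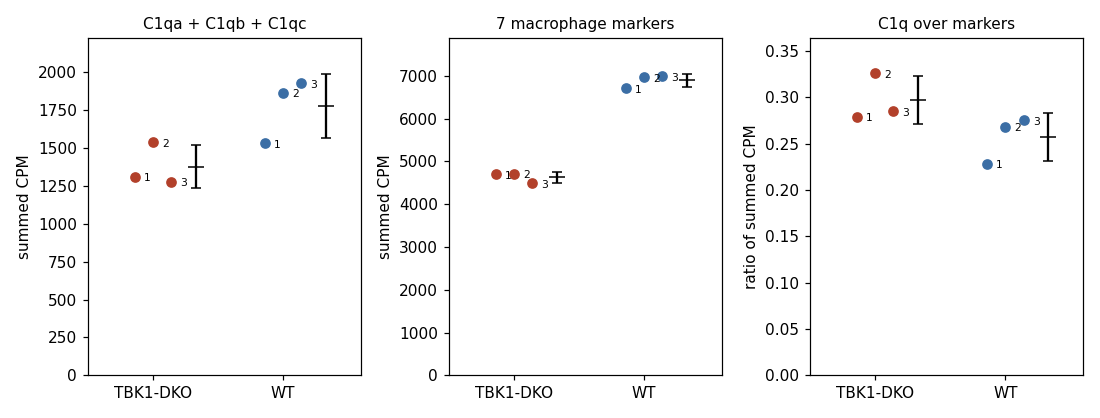
Summed CPM of the 3 C1q chains (left), summed CPM of 7 macrophage markers (middle) and their ratio (right) in each library, all axes from 0, TBK1-DKO in red and WT in blue, replicate numbers beside the points, mean and SD in black. The C1q sums of TBK1-DKO 2 and WT 1 nearly meet, at 1537.1 and 1532.3 CPM, the marker sums are far apart, and the ratio is above 0.275 in all TBK1-DKO libraries.

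Genes known from work in mice to regulate macrophage C1q or to be expressed with it fell in part as well. Of 10 such genes, 7 fell, 0 rose and 3 were not called, with a median of -0.41. Nr1h3, the lipid-sensing receptor LXR alpha, stood at 117, 132 and 111 CPM in TBK1-DKO libraries, against 139, 157 and 161 CPM in WT libraries (log2 fold change -0.35, SE 0.08, adjusted p = 0.011). Its call was lost without TBK1-DKO 3, WT 2 or WT 3 (adjusted p 0.050 to 0.054). Maf, Rxra, Pparg, Spic and Irf8 also fell. Nr1h3, Spic and Irf8 stand in the marker lists above as well. Abca1 was not called (log2 fold change -0.39, adjusted p = 0.056), but was called in several alternatives, DESeq2 and limma-voom among them. Apoe, the apolipoprotein of lipid-laden macrophages, was not called (log2 fold change -0.26, adjusted p = 0.19). It was called with the length and GC offsets (-0.32, adjusted p = 0.005), without WT 1 (-0.40, adjusted p = 0.022) and without TBK1-DKO 2 and WT 1 together (-0.52).

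The genes whose pattern over the 6 libraries was nearest to the mean of the C1q chains, among 10709 genes of at least 5 CPM, were Rab20, Vkorc1, Pld3, Nr1h3, Myom1, Fam213b, Mag and Cst3, at root mean square differences of 0.0347 to 0.0462 log2 units. The mean absolute difference named the same 8 genes. By this choice, all 8 genes share with C1q the high TBK1-DKO 2 and the low WT 1. Cst3 encodes the protease inhibitor cystatin C. It stood at 719, 848 and 729 CPM in TBK1-DKO libraries, against 869, 991 and 1005.2 CPM in WT libraries. Cfp was nearest of the other complement genes compared, at 0.0584, while C6 stood at 0.129, Fcna at 0.233, C3 at 0.281, C5ar1 at 0.416 and Cfb at 0.437. C6 and the C1q chains thus both fell but differed in pattern: C6 had nearly equal levels in the 3 TBK1-DKO libraries.

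Genes near the 9 complement genes were called about as often as all genes. Of 67 tested genes that start within 200 kb of at least 1 of them, 16 were called, 7 up and 9 down, which is 23.9%. None of the 2 further genes tested around the C1q cluster was called. Around Cfb, 5 of 21 were called. Dom3z, Nelfe and Lsm2 rose (log2 fold changes 0.50, 0.43 and 0.42), and C2 and Hspa1a fell (-0.29 and -0.65). Around C3ar1, 4 of 8 were called, all C-type lectin receptor genes of the Clec4a and Clec4b families, of which Clec4a4, a marker of a dendritic cell subset, rose (log2 fold change 0.37) and Clec4a1, Clec4a3 and Clec4b1 fell (-0.30, -0.38 and -0.45).

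**Figure D5:**
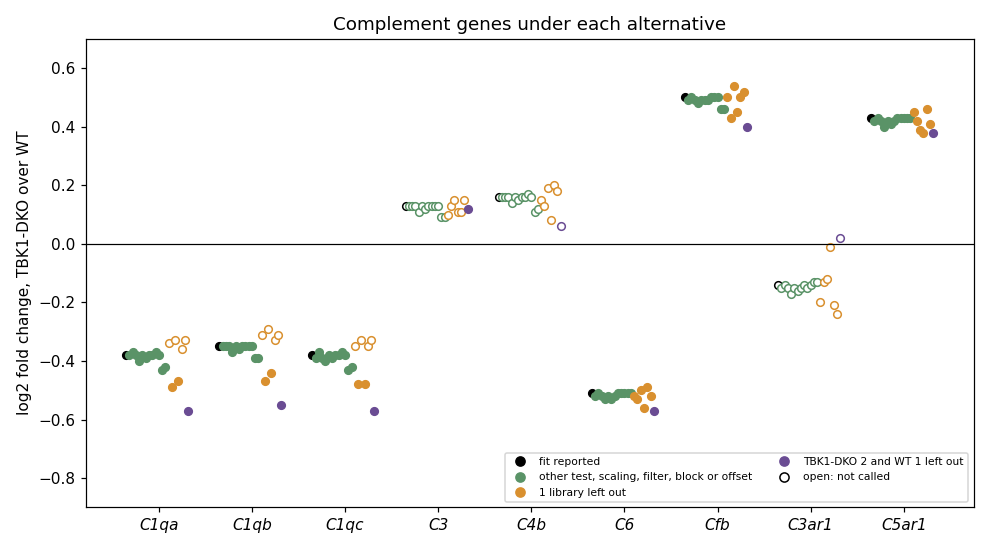
Log2 fold change, TBK1-DKO over WT, of each of the 9 complement genes in the fit reported (black) and in 19 alternatives (green, other tests, scalings, filters, block or offsets; orange, 1 library left out; purple, TBK1-DKO 2 and WT 1 left out); filled points were called. C6, Cfb and C5ar1 are filled throughout, and the C1q chains are open in 4 of the orange points each.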

How the data were processed

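RNA-seq of 6 libraries of mouse splenic dendritic cells was analysed from the deposited counts of reads per gene, which are whole numbers, with no scaling and no pooling. Per the submitters' processing notes, the tools were TopHat, TopHat2, HTSeq and DESeq2 and the build mm10. The sources used here do not give their versions, the annotation or the strand setting. Reads of genes that overlap, on the same or the opposite strand, could thus not be told apart. Records that name no gene (9.96% to 10.72% in TBK1-DKO libraries, 8.2% to 8.67% in WT libraries) were left out.

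Genes were filtered with filterByExpr (minimum count 10), scaled by TMM and tested with the edgeR 4.0.16 quasi-likelihood F test in R 4.3.3, robust and without covariates, with Benjamini-Hochberg adjustment over all genes tested. CPM are counts scaled to 1000000 reads; fold changes are TBK1-DKO over WT on the log2 scale; SE come from the F statistic. A count of 0 allows up to 3 reads per library; this limit covers counting error only. Single ratios were compared with an exact permutation test. The tests were first run on simulated counts.

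Gene positions and lengths came from GENCODE M21 (GRCm38, the assembly of mm10), 1-based; 21777 symbols matched directly, 1259 through a synonym, and 384 had no position. Levels per kb use the longest protein-coding transcript. Promoters came from RefSeq.

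The complement genes and gene lists were chosen with earlier results of these data known. Named genes were, by rule, the 9 genes, called genes of the complement lists and those not called with the highest level, the marker genes with the smallest p, the 8 genes nearest to C1q and called neighbours; a part of them is printed, and 2 genes of the lists are not reported here. The named Cfd, C7, C8b, C9 and C5ar2 were added for their role in the pathway. Alternatives were DESeq2 1.42.0, limma-voom (limma 3.58.1), other scalings and filters, a replicate block, length and GC offsets, and libraries left out. For C1q over macrophage markers, all red pulp markers and the fit without TBK1-DKO 2 and WT 1 were added after seeing the data, as was the recount of neighbours. Figures were drawn with matplotlib 3.10.9.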

Additional observations from a re-analysis of the deposited data

How the results depend on the processing

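The log2 fold changes of C6, Cfb and C5ar1 kept their direction and their call in all 19 alternatives. Leaving out each library in turn gave log2 fold changes of -0.49 to -0.33 for C1qa, -0.47 to -0.29 for C1qb, -0.48 to -0.33 for C1qc, and 1 to 4 of the 9 genes that fell; the C1q calls were lost in 4 of these 6 fits, and the cause was not tested. It gave 1336 to 2270 genes called up and 972 to 2082 called down over all genes, from fewer libraries. Without TBK1-DKO 2 and WT 1 together, 3500 genes were called up and 3397 down against 1978 and 1424 in the full comparison, 31 neighbours were called against 16, C3 was called at 0.12 and C3ar1, not called, turned to 0.02. Length and GC offsets gave 5 complement receptors, 8 B cell markers and 5 monocyte markers that fell, against 3, 4 and 3, and 2393 genes called down, and 2489 with the replicate block added; both moved Cr1l, not called at -0.01, to 0.04; it ran from -0.05 to 0.02 with 1 library left out and was at 0.02 without TBK1-DKO 2 and WT 1. With the replicate number as a block, 2313 genes were called up and 1773 down, C1qa stood at -0.37 (adjusted p = 0.0007), no call among the 9 genes changed, and Apoe was called (-0.25, adjusted p = 0.042). Whether the numbers pair the samples could not be told. The correlations of same-numbered libraries were 0.182, 0.149 and -0.065, and those of unlike numbers ran from -0.22 to 0.121. Not every library correlated best with its own number. The cause of these changes was not tested. Depth limits C3ar1, with 55 to 85 reads per library, and the 50-base words shared by C4b with C4a and by Cfb with Gm20547 limit what their counts can say.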

Other observations

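Genes of the C1q and TNF related family, whose proteins carry the globular head domain of C1q outside the complement system, did not follow the C1q chains. Of 17 in the files, 10 could be tested, 3 rose, 1 fell and 6 were not called, with a median log2 fold change of 0.34. Emilin2, an extracellular matrix glycoprotein, stood at 102, 105 and 106 CPM in TBK1-DKO libraries, against 82.8, 80.2 and 78.2 CPM in WT libraries (log2 fold change 0.38, SE 0.05, adjusted p = 0.00059). Mmrn1, a platelet and endothelial protein that binds factor V, rose at a low level, with 1.66 ± 0.234 CPM in TBK1-DKO libraries and 0.848 ± 0.164 CPM in WT libraries (SD, n = 3 each; log2 fold change 0.98, SE 0.20, adjusted p = 0.0061). Emilin1 rose (log2 fold change 0.31, adjusted p = 0.017), a call lost without TBK1-DKO 3 (adjusted p = 0.056) or WT 2 (adjusted p = 0.10). C1ql3, with 9 to 32 reads per library, fell (log2 fold change -1.25, SE 0.38, adjusted p = 0.037), a call lost without TBK1-DKO 1, TBK1-DKO 2, WT 1 or WT 3 and without TBK1-DKO 2 and WT 1 together (adjusted p 0.062 to 0.14). The difference between this family and the C1q chains was not tested.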
